A study of Mus musculus with 16 samples.

Results

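The MHC class II genes and their transactivator Ciita were followed in RNA sequencing libraries of mouse bone marrow. The group held 10 genes of the 45706 gene IDs in the count table: Cd74, H2-Aa, H2-Ab1, H2-Eb1, H2-DMa, H2-DMb1, H2-DMb2, H2-Oa, H2-Ob and Ciita. They were taken by name, each through the 1 Ensembl ID that carries its symbol, and all 10 passed the low count filter of every fit. The study put a haploinsufficient Gata2 blood system under stress by grafting few LSK cells, after sorting, into WT hosts given lethal irradiation. Gata2 encodes a zinc finger transcription factor of blood stem and progenitor cells, and haploinsufficiency means that 1 of its copies does not work. LSK cells lack lineage markers, carry Sca-1 and Kit, and include the blood stem cells and the earliest progenitors of the marrow. They gave 3 libraries labelled Day0_Gata2, 2 labelled Day0_WT, 2 labelled Day2_Gata2 and 3 labelled Day2_WT. Marrow cells sorted for CD45.2, an allelic form of the leukocyte surface protein CD45 used to tell grafted from host cells, gave 3 libraries labelled Week2_Gata2 and 3 labelled Week2_WT. The labels give genotype, time and cell type. How the Gata2 allele was made and the strain, age and labelled sex of the animals are not given in the sources read. Whether each replicate was a separate animal or a pool is not given either. By Xist and Ddx3y counts, which tell sex, Day0_WT, Day0_Gata2 and Week2_Gata2 each held both sexes. Their libraries were thus not all repeats of a single sample. The other groups were all male by these counts, so sex does not tell whether their libraries came from separate samples. In Day2_Gata2 and Day2_WT the spread among libraries, on which the p-values also rest, could be technical only. The Week2_WT libraries differed widely in erythroid genes, as given with the Week2 markers, and the source of that spread was not tested.

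MHC class II molecules are surface dimers that show peptides from taken-up protein to CD4+ T cells, and B cells, dendritic cells and macrophages are their best known carriers. Newly made dimers are held by the invariant chain, encoded by Cd74, whose last fragment is pulled from the groove by the peptide exchanger H2-DM, while H2-DO restrains H2-DM. Ciita is the coactivator that switches the whole set on, docking on factors bound at the X and Y boxes of the promoters without touching DNA itself. Interferon gamma raises Ciita in cells that do not carry it by default, and Irf1 is among the factors that take part.

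Total counts, in units of 1e+06, ran from 19.6 to 68.3 in LSK libraries and from 177 to 321 at Week2. Day0_WT replicate 1 was the shallowest library and stood apart. Across genes, its log2 levels had r = 0.847 with those of Day0_WT replicate 2, where replicate pairs of the other LSK groups had at least 0.982, and WT values that moved without it are given with and without it. Leaving it out leaves Day0_WT with 1 library, replicate 2, which is then assumed to vary like the other groups, since they alone give the spread. By Xist and Ddx3y counts, Day0_WT replicate 2 and Day0_Gata2 replicate 3 were female and all 5 Day2 libraries male, so a WT value without replicate 1 sets male Day2 libraries against 1 female Day0 library. With sex as a covariate, over all 10 LSK libraries, edgeR called 3 of the 10 genes lower at Day2 in WT and 4 in Gata2-labelled libraries. Over all genes, 18.7% were lower in WT and 4.37% in Gata2-labelled libraries in that fit. Gata2 itself was no lower in libraries labelled Gata2: its log2 fold change against WT was 0.81 at Day0, 1.18 at Day2 and 0.35 at Week2, and none of these was called by edgeR. The labels were kept, and a direction below is that of the libraries labelled Gata2. The 9 genes that mark LSK cells summed to 1645 to 2668 CPM (counts per 1e+06 counted reads, with 1 TMM scaling over all 16 libraries) in the LSK libraries and to 81.8 to 158 CPM at Week2.

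On mm10, with GENCODE M21 annotation, the 8 H2 genes lay within 1 stretch of chromosome 17. H2-Oa (34092340 to 34095234) came first, then H2-DMa (34119541 to 34139101), H2-DMb2 (34143307 to 34151555), H2-DMb1 (34153072 to 34160230), H2-Ob (34238903 to 34254414), H2-Ab1 (34257689 to 34269419), H2-Aa (34282744 to 34287823) and H2-Eb1 (34305867 to 34316674). H2-Aa is on the minus strand, and the others are on the plus strand. Ciita is on chromosome 16 (10480059 to 10528418, plus strand) and Cd74 on chromosome 18 (60803848 to 60812652, plus strand). Values are whole-gene counts over exons, so no single exon or UTR is resolved.

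Some of these counts can hold reads of a neighbour, since the strand setting of the counting is not given. Exons of H2-DMa overlap 360 bases of Brd2 exons on the opposite strand, those of H2-Oa overlap 321 bases of an antisense gene, BC051537, and those of Ciita overlap 329 bases of Dexi. H2-DMb1 and H2-DMb2, near copies that both encode an H2-DM beta chain, share sequence: 22.7% of the 50-base windows of H2-DMb1 transcripts were also found in H2-DMb2 transcripts. The values of this pair are uncertain to that extent.

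The promoters of 4 of the 7 genes with an entry in the RefSeq table (GRCm38.p6, the same coordinates as mm10) are shown because H2-Aa and H2-Eb1 both fell after Day0 in libraries labelled Gata2 and because H2-DMb1 and H2-DMb2 parted at Week2. Each line is the 150 bases before the RefSeq start site, 5′ to 3′ on the gene's strand. The H2-DMb2 window lies inside the GENCODE M21 span of its gene, which starts at 34143307. The H2-DMb1 window runs past the GENCODE M21 start of its gene, 34153072. They are chr17:34287824-34287973 (minus) for H2-Aa, chr17:34305717-34305866 (plus) for H2-Eb1, chr17:34153041-34153190 (plus) for H2-DMb1 and chr17:34145099-34145248 (plus) for H2-DMb2. Capitals mark first a stretch that differs by at most 2 letters from CTAGCAAC, the core of the X box, and then GATTGG, the Y box, 10 to 40 bases after it on the same strand.
H2-Aa: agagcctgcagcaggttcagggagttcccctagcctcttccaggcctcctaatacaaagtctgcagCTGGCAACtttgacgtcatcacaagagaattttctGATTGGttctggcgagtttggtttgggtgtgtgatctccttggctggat
H2-Eb1: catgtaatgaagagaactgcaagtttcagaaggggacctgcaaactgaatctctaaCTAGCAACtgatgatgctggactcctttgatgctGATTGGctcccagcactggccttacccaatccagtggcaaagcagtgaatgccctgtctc
H2-DMb1: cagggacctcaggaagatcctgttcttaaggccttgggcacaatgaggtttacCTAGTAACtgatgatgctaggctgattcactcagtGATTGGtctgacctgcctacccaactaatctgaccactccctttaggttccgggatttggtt
H2-DMb2: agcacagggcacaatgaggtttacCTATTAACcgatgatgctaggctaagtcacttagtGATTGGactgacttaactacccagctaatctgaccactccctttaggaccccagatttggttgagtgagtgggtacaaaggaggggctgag

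The X stretch read CTGGCAAC in H2-Aa, CTAGCAAC in H2-Eb1, CTAGTAAC in H2-DMb1 and CTATTAAC in H2-DMb2, and 27, 26, 27 and 27 bases separated it from the Y box. H2-Oa (CCAGCAAC, 27 bases) and H2-Ob (CTAGCAAC, 24 bases) held the same order of motifs. On either strand, an X stretch stood in 62.3% of 32851 RefSeq promoter windows of this length, a Y box in 10.9%, and the X stretch followed by the Y box at that distance in 1.05%. The search rule was set after these promoters had been read, so the count of matches is a description. Neither of the 2 H2-DMa windows in the table held the pair, which says only that these letters are not in them. Those windows end at 34122831 and 34125517, just before the start sites. GENCODE M21 also starts protein-coding H2-DMa transcripts at 34135628 and 34135654, which no window covered. Cd74, H2-Ab1 and Ciita had no entry.

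Per kilobase of exon, Cd74 had the highest level of the 10 genes in 5 of the 6 groups, and Ciita had the lowest level in all 6. Cd74 averaged 115 ± 15.8 CPM per kb (SD, n = 3) in Day0_Gata2 and 133 ± 20.3 (n = 2) in Day0_WT. In Day2_Gata2 it averaged 36.5 ± 2.16 CPM per kb (n = 2), below H2-DMa at 51.6 ± 1.73, and the ranges of the 2 genes did not overlap. Day2_WT gave 63.6 ± 10.02 CPM per kb for Cd74 and 50.1 ± 10.6 for H2-DMa (n = 3), with overlapping ranges. At Week2 Cd74 reached 957 ± 155 CPM per kb in Week2_Gata2 and 725 ± 227 in Week2_WT (n = 3 each), against 193 ± 85.3 and 132 ± 41.8 for H2-Ab1, the next gene in both. Ciita, the coactivator, had 0.725 ± 0.126 CPM per kb in Day0_Gata2 and 0.910 ± 0.423 in Day0_WT. Many neighbours in the order could not be told apart by their ranges: H2-Ab1 and H2-DMa overlapped in both Day0 groups, and H2-Aa and H2-Eb1 overlapped in both Week2 groups.

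**Figure D1:**
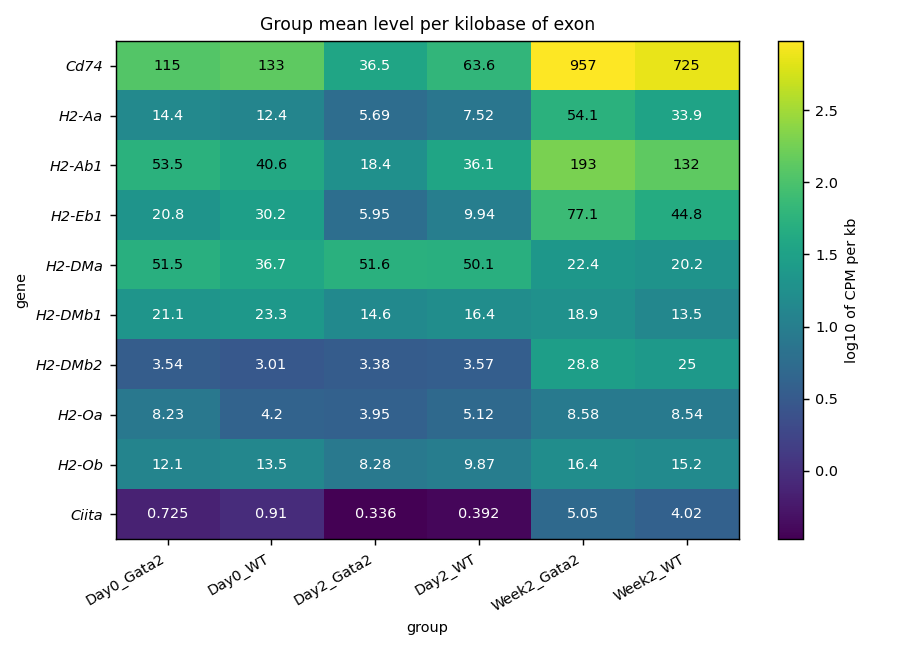
Mean level of each gene in each group, in CPM per kilobase of exon, printed in the cells and coloured on a log10 scale. Rows are genes and columns are groups. Cd74 is the brightest row in every group except Day2_Gata2, where H2-DMa has 51.6 against 36.5 for Cd74, and Ciita is the darkest row, with 0.336 to 5.05.

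The Day2 against Day0 comparison asks how LSK cells of each genotype differed 2 days on. Cd74 and H2-Eb1 were lower at Day2 in both genotypes, and the H2-DM genes were not called in either. In the libraries labelled Gata2, 4 of the 10 genes fell (Cd74, H2-Aa, H2-Ab1 and H2-Eb1) and 0 rose at an adjusted p under 0.05, where 4.82% of the 19162 genes tested fell and 4.48% rose. In WT, 3 of the 10 fell (Cd74, H2-Eb1 and Ciita) and 0 rose, where 17.9% of all genes fell and 11.9% rose. The median log2 fold change of the 10 genes was -1.08 in Gata2-labelled libraries and -0.51 in WT, against -0.07 and -0.11 over all genes tested. Groups did not overlap, with Day2 lower, for 8 of the 10 genes in Gata2-labelled libraries and for 5 in WT, against 34.4% and 26.3% of all genes. Because these are bulk samples, fewer cells of a type and less RNA per cell cannot be told apart.

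**Figure D2:**
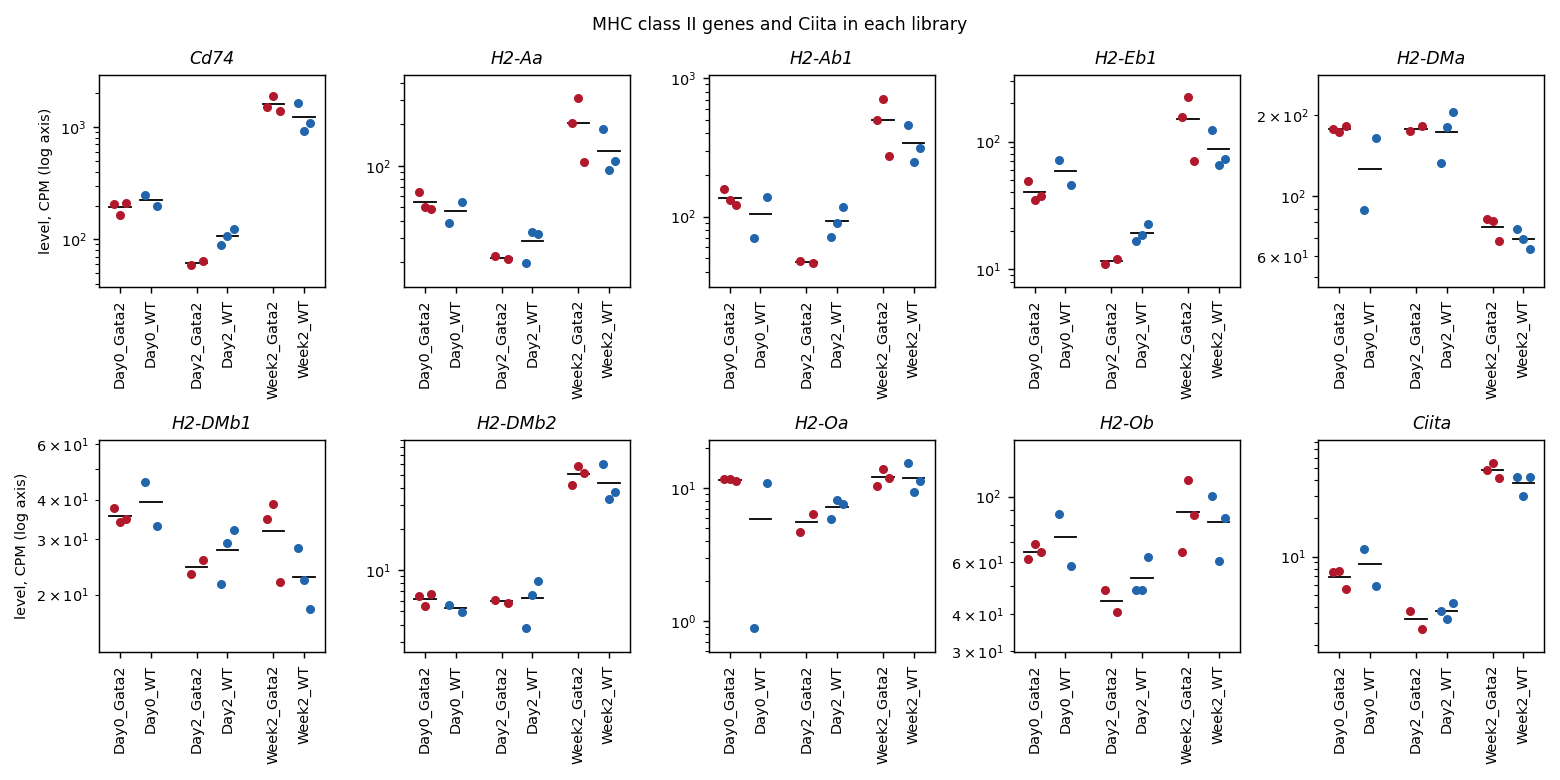
Level of each of the 10 genes in each of the 16 libraries, in CPM on a log axis that differs between panels. Points are libraries (red labelled Gata2, blue WT) and black lines are group means. Cd74 lies between 58.8 and 123 CPM in the 5 Day2 libraries and between 163 and 247.5 CPM in the 5 Day0 libraries, and Week2 libraries lie at 919 CPM or more.

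Cd74, the invariant chain, had 58.8 and 63.9 CPM in the Day2_Gata2 libraries, against 206, 163 and 212.5 CPM in the Day0_Gata2 libraries. In WT it had 89.6, 107.6 and 123 CPM at Day2, against 247.5 and 199 CPM at Day0. Every Day2 library lay below every Day0 library of either genotype. The fall was 3.16-fold in Gata2-labelled libraries (log2 fold change -1.66, SE 0.19, edgeR adjusted p = 0.00118) and 2.13-fold in WT (-1.09, SE 0.18, edgeR adjusted p = 0.00307). Without Day0_WT replicate 1 the WT value was -0.93 (SE 0.19, edgeR adjusted p = 0.00798).

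H2-Eb1, the beta chain of the I-E dimer, fell most in size on the log2 scale among the 10 genes in both genotypes. It had 11.1 and 12.1 CPM in the Day2_Gata2 libraries, against 49.3, 34.9 and 37.3 CPM in the Day0_Gata2 libraries. The WT libraries had 16.6, 18.6 and 22.8 CPM at Day2, against 71.8 and 45.4 CPM at Day0. Again no Day2 library reached the lowest Day0 library. The fall was 3.5-fold in Gata2-labelled libraries (log2 fold change -1.81, SE 0.28, edgeR adjusted p = 0.00467) and 3.10-fold in WT (-1.63, SE 0.26, edgeR adjusted p = 0.00267), or -1.26 in WT without Day0_WT replicate 1 (SE 0.23, edgeR adjusted p = 0.00488).

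H2-Aa and H2-Ab1, the alpha and beta chains of the I-A dimer, passed the test in the libraries labelled Gata2. H2-Aa had 22.1 and 21.1 CPM in Day2_Gata2, against 64.9, 50.6 and 48.6 CPM in Day0_Gata2, a log2 fold change of -1.34 (SE 0.27, edgeR adjusted p = 0.0160). H2-Ab1 had 48.1 and 46.6 CPM in Day2_Gata2, against 159, 131 and 122 CPM in Day0_Gata2, a log2 fold change of -1.54 (SE 0.30, edgeR adjusted p = 0.0133). Day2_Gata2 has 2 libraries, and leaving out either leaves 1, with the spread taken from the other groups. Both calls were lost in these fits, where only Cd74 and H2-Eb1 of the 10 genes were called, and H2-Aa also lost its call without Day0_Gata2 replicate 1 or 2. In WT, H2-Aa had 19.97, 33.5 and 32.3 CPM at Day2, against 38.85 and 55.1 CPM at Day0 (log2 fold change -0.74, SE 0.26, edgeR adjusted p = 0.0559). Set against Day0_WT replicate 2 alone it was -0.98 (SE 0.27, edgeR adjusted p = 0.0286). H2-Ab1 had 71.4, 89.5 and 117 CPM in Day2_WT, against 69.5 and 139 CPM in Day0_WT, so the WT groups overlapped. Its WT value was -0.19 (SE 0.28, edgeR adjusted p = 0.650), and -0.61 without Day0_WT replicate 1 (SE 0.24, edgeR adjusted p = 0.0991).

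Of the peptide exchange genes, H2-DMa, the H2-DM alpha chain, had 174 and 182 CPM in Day2_Gata2, against 177, 173 and 182 CPM in Day0_Gata2. Its groups overlapped and its log2 fold change was 0.00 (0.0042, SE 0.24, 95% interval -0.47 to 0.48, taken here and below from the SE by the normal approximation, which is narrow for so few libraries). In WT it had 133, 180 and 205 CPM at Day2, against 88.9 and 164 CPM at Day0 (log2 fold change 0.43, SE 0.24, edgeR adjusted p = 0.208, or 0.04 without Day0_WT replicate 1). The quotient of Cd74 to H2-DMa CPM, used only to compare libraries, was 0.338 and 0.351 in Day2_Gata2, against 0.942 to 1.17 in Day0_Gata2. In WT it was 0.598 to 0.673 at Day2, against 2.785 in Day0_WT replicate 1 and 1.21 in replicate 2. H2-DMb1 was -0.53 in both genotypes (SE 0.23 each, edgeR adjusted p = 0.186 in Gata2-labelled libraries and 0.101 in WT), and the WT value was -0.29 without Day0_WT replicate 1 (edgeR adjusted p = 0.368). H2-DMb2, with 3.77 to 8.36 CPM over all LSK libraries, was -0.06 (SE 0.38) and 0.22 (SE 0.39), and neither was called.

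The restraining H2-DO chains were not called either. H2-Ob, its beta chain, was -0.55 in Gata2-labelled libraries (SE 0.22, edgeR adjusted p = 0.150) and -0.48 in WT (SE 0.21, edgeR adjusted p = 0.111), or -0.16 without Day0_WT replicate 1 (edgeR adjusted p = 0.571). H2-Oa, its alpha chain, had 4.70 and 6.42 CPM in Day2_Gata2, against 11.7, 11.8 and 11.3 CPM in Day0_Gata2 (log2 fold change -1.06, SE 0.74, edgeR adjusted p = 0.431). In WT it had 5.84, 8.13 and 7.64 CPM at Day2, against 10.9 CPM in Day0_WT replicate 2 and 0.883 CPM, from 19 counts, in replicate 1. The WT value was 0.27 (SE 0.73) with replicate 1 and -0.63 without it (SE 0.27, edgeR adjusted p = 0.118), so its direction rested on that library.

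Ciita had 3.72 and 2.69 CPM in Day2_Gata2, against 7.50, 7.71 and 5.53 CPM in Day0_Gata2, and 3.70, 3.21 and 4.30 CPM in Day2_WT, against 11.5 and 5.82 CPM in Day0_WT. The Day2 libraries lay below the Day0 libraries in both genotypes, on 137 to 391 counts per LSK library. The log2 fold change was -1.11 in Gata2-labelled libraries (SE 0.42, edgeR adjusted p = 0.132) and -1.25 in WT (SE 0.40, edgeR adjusted p = 0.0419). The WT call was lost in 10 of 17 alternatives. Without Day0_WT replicate 1 it was -0.67 (SE 0.33, edgeR adjusted p = 0.177). In the same setting, Ciita passed in the Gata2-labelled libraries (-1.13, edgeR adjusted p = 0.0176), where 8 of the 10 genes were called lower, against 12.8% of all genes, with H2-DMa and H2-DMb2 the exceptions.

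**Figure D3:**
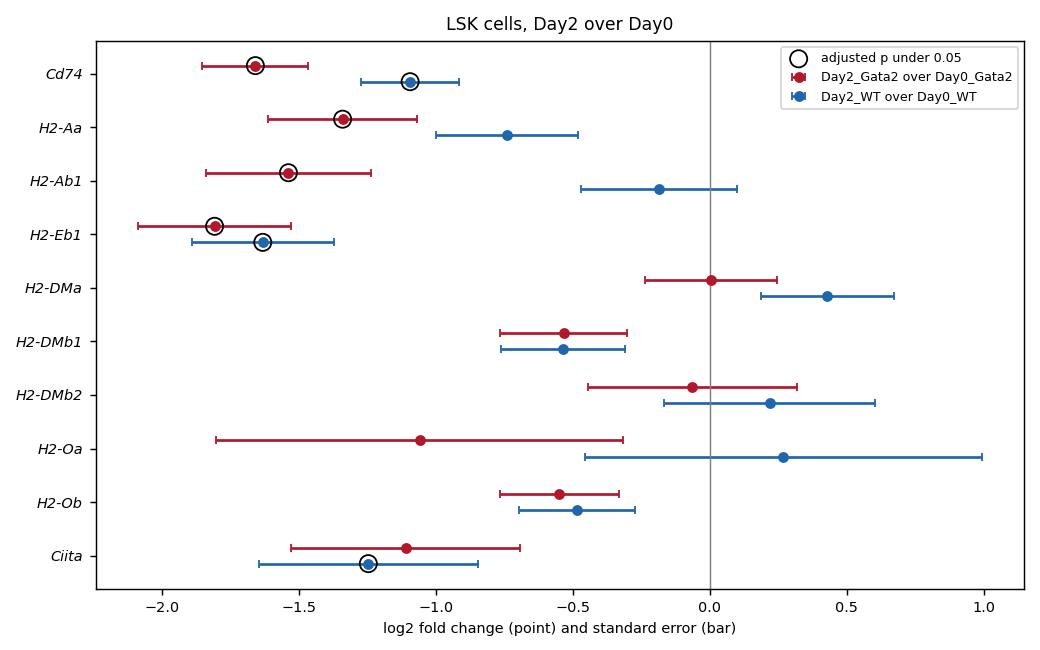
Log2 fold change of Day2 over Day0 for each gene in LSK libraries, in red for libraries labelled Gata2 and in blue for WT. Points are estimates, bars are standard errors and open circles mark an adjusted p under 0.05. Cd74 and H2-Eb1 are circled in both genotypes, and H2-DMa and H2-DMb2 lie at 0.00 and -0.06 in red.

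Whether the change over time differed between genotypes was tested with the interaction term. 0 of the 10 genes were called, as were 0% of all genes in either direction (edgeR), and DESeq2 also called 0 of the 10. Over all genes DESeq2 called 200 of 36570 higher and 49 lower. At an unadjusted p under 0.05, 1 of the 10 genes and 1984 of the 19162 genes tested stood out. That gene was H2-Ab1, with a difference of -1.35 on the log2 scale (SE 0.41, 95% interval -2.16 to -0.55, edgeR adjusted p = 0.465), or -0.95 without Day0_WT replicate 1 (SE 0.33, edgeR adjusted p = 0.642). For Cd74 the difference was -0.56 (SE 0.26, edgeR unadjusted p = 0.0556 and adjusted p = 0.486).

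Genes of the factors that act with Ciita did not all move one way. List counts of Day2 against Day0 stand beside 4.82% of all genes lower and 4.48% higher in Gata2-labelled libraries. In WT these shares were 17.9% and 11.9%. Of 12 such genes, 1 was lower at Day2 in Gata2-labelled libraries (0 higher), and 4 were lower and 1 higher in WT. Irf1, an interferon-induced activator, fell in both: to 68.3 ± 1.61 CPM in Day2_Gata2, against 144 ± 11.4 in Day0_Gata2 (log2 fold change -1.08, edgeR adjusted p = 0.0029), and to 70.0 ± 6.69 in Day2_WT, against 156 ± 16.4 in Day0_WT (-1.18, edgeR adjusted p = 0.000724). In WT, Nfya, a subunit of the Y box factor, fell (-1.73, edgeR adjusted p = 0.00349), and its value was -1.16 without Day0_WT replicate 1, where it stood at 61.1 CPM against 30.9 CPM in replicate 2 (edgeR adjusted p = 0.00485). Nfyc, another Y box subunit, was the 1 called higher in WT (0.88, edgeR adjusted p = 0.0436), a call that rested on Day0_WT replicate 1 (0.39 without it, edgeR adjusted p = 0.121). Of 7 genes of the interferon gamma receptor and signal, 1 (Irf1, which both lists hold) was lower in Gata2-labelled libraries. Irf1 was lower in WT too. The kinase gene Jak1 was called higher in WT (0.71, edgeR adjusted p = 0.0300), and that call was lost without Day0_WT replicate 1 (0.35, edgeR adjusted p = 0.128).

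Of 10 genes of class II processing and turnover, 2 were lower and 1 higher at Day2 in Gata2-labelled libraries, and 1 was lower and 3 were higher in WT. Lgmn, a lysosomal protease that trims the invariant chain, fell in both (-1.78 in Gata2-labelled libraries, edgeR adjusted p = 0.0404, and -1.47 in WT, 0.0285), with the WT call lost without Day0_WT replicate 1 (-1.31, edgeR adjusted p = 0.0605). Ctsd, the protease cathepsin D, rose in both (0.67, edgeR adjusted p = 0.0424, and 1.38, 0.00119). Cd83, which counters the ubiquitin ligase that removes class II from the surface, fell in Gata2-labelled libraries (-2.66, edgeR adjusted p = 0.0445). Of 5 co-stimulation genes, 1 was lower in Gata2-labelled libraries and 2 were lower in WT. Cd86, a ligand of the T cell receptor CD28, had 0.757 ± 0.265 CPM in Day2_Gata2, against 5.89 ± 0.277 in Day0_Gata2, and 1.37 ± 0.732 in Day2_WT, against 5.98 ± 0.905 in Day0_WT (edgeR adjusted p = 0.0124 and 0.0130).

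The class I pathway fell in part over the same days. Of its 12 genes, 4 were lower and 0 higher at Day2 in each genotype. H2-K1, a class I heavy chain, averaged 1189 ± 32.1 CPM in Day2_Gata2, against 2574 ± 43.3 in Day0_Gata2 (log2 fold change -1.11, edgeR adjusted p = 0.00301), and 1370 ± 223 in Day2_WT, against 2360 ± 367 in Day0_WT (-0.81, edgeR adjusted p = 0.00503). Nlrc5, the class I counterpart of Ciita, was -1.30 in both (edgeR adjusted p = 0.00742 and 0.00297). Of 10 neighbours of the class II genes on chromosome 17, 0 were called in either genotype. Tap1, Tap2, Psmb8 and Psmb9 are in this list and in the class I list, so these are not separate sets. Without Day0_WT replicate 1, edgeR called 4 neighbours lower in Gata2-labelled libraries, Tap1 and Psmb9 among them, where 2567 of 19996 genes were lower. The lists were drawn up with earlier results of these data known, and no list was tested as a set. Of 2 further class II genes in the count table, the pseudogene H2-Ea-ps had no count in any Day2 library. The symbol H2-Ea was also listed, but it matched no gene ID. H2-Eb2, a minor beta chain gene, had no count in the 3 Day2_WT libraries, which allows up to 0.0569 to 0.0605 CPM, against 0.744 and 0.195 CPM in Day0_WT, and was called (edgeR adjusted p = 0.0150).

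Markers of other cells were followed over the same days. The 13 B cell genes summed to 33.0 and 39.3 CPM in Day2_Gata2, against 85.5 to 136 CPM in Day0_Gata2, and to 25.6 to 41.7 CPM in Day2_WT, against 171 and 77.7 CPM in Day0_WT, and 1 and 6 of them were called lower. Of the 13, 10 had values below 0 in Gata2-labelled libraries and 11 in WT, and 3 and 2 had values above 0. Pax5 and Ebf1, which specify B cells, and Ms4a1 had no count in the Day2_WT libraries, where Cd74 had 89.6 CPM or more. Ms4a1 was not called there (edgeR adjusted p = 0.0702). Cd79a, part of the B cell receptor, had 0 and 2.00 CPM in Day2_Gata2, against 18.7, 12.1 and 9.16 CPM in Day0_Gata2. That change was not called (log2 fold change -3.73, edgeR adjusted p = 0.164). Of 13 dendritic cell genes, 3 were lower in each genotype and 2 (Gata2-labelled) and 1 (WT) higher: Flt3, also an LSK marker, was -2.10 and -2.48, and Siglech, of plasmacytoid dendritic cells, was 3.61 and 1.65 (2.89 in WT without Day0_WT replicate 1). Of 12 monocyte and macrophage genes, 1 was lower and 1 higher in Gata2-labelled libraries, and 1 lower and 3 higher in WT. Ccr2, a monocyte chemokine receptor, was 3.30 and 3.27. The part of any of these cells in the class II values was not tested.

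The remaining lists stand beside 4.82% of all genes lower and 4.48% higher in Gata2-labelled libraries, and 17.9% and 11.9% in WT. Of 9 T and NK cell genes, 5 were called lower at Day2 in each genotype. Of 6 erythroid genes, 2 were lower in Gata2-labelled libraries and 4 in WT. Of 9 LSK genes, 3 and 4 were lower in the same order. Of 8 neutrophil granule genes, 1 was higher in Gata2-labelled libraries and 5 were higher in WT, and 0 were lower. Without Day0_WT replicate 1, 2567 of 19996 genes were lower and 2296 higher in Gata2-labelled libraries. There 6 of the B cell genes, 7 of the T and NK cell genes and 6 of the class I genes were lower, and 1 B cell gene was higher. Counts are not given for WT in that setting, where Day0_WT is 1 library. In the same setting, Gata2-labelled libraries first and WT after, dendritic cell genes went both ways, with Siglech at 3.59 and 2.89 and Xcr1 at -4.42 and -3.94. Monocyte and macrophage genes did so too, with Ccr2 at 3.27 and 3.65 and C1qa at -3.86 and -3.48. Of the neutrophil granule genes, Ngp was 2.78 and 3.84. In Gata2-labelled libraries the transcription machinery list then had 4 lower and 1 higher, the processing list 3 lower and 1 higher, and the co-stimulation list 3 lower.

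Gata2-labelled and WT libraries were next compared at each time. At Day0, edgeR called 0% of all genes in either direction, and DESeq2 called 29 of 36570 higher and 407 lower. Neither called any of the 10 genes, and 0 of the 10 had an unadjusted edgeR p under 0.05. Their median log2 fold change was 0.01, against 0.02 over all genes. H2-DMa and H2-Oa were higher in every Day0_Gata2 library than in either Day0_WT library, where 18.8% of all genes were. Without Day0_WT replicate 1, H2-DMa was 0.12 (SE 0.20) in place of 0.47 and H2-Oa 0.09 (SE 0.27) in place of 0.96. Without Day0_WT replicate 2, which leaves the library that stands apart as the WT group, edgeR called H2-Ab1, H2-DMa and H2-Oa higher and H2-Eb1 lower, with 25.4% of all genes higher and 14.5% lower.

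At Day2, edgeR called 0% of all genes in either direction, and DESeq2 called 58 of 36570 higher and 111 lower. Neither called any of the 10 genes. Their median log2 fold change was -0.31, against 0.00 (-0.00098) over all genes, and 9 of the 10 values were below 0. Cd74, H2-Ab1 and H2-Eb1 were lower in both Day2_Gata2 libraries than in any Day2_WT library, where 11.2% of all genes were, and these 3 had an unadjusted p under 0.05, as had 1070 of 19162 genes. Cd74 averaged 61.4 ± 3.62 CPM in Day2_Gata2 (n = 2) and 107 ± 16.8 in Day2_WT (n = 3), a log2 fold change of -0.80 (SE 0.19, 95% interval -1.16 to -0.43, edgeR adjusted p = 0.471). H2-Ab1 averaged 47.4 ± 1.08 and 92.8 ± 23.2 CPM in the same order (-0.97, SE 0.29, edgeR adjusted p = 0.736). H2-Eb1 averaged 11.6 ± 0.705 and 19.3 ± 3.18 CPM (-0.74, SE 0.27, edgeR adjusted p = 0.832). These 3 values moved little without Day0_WT replicate 1, which enters through the shared spread (-0.78, -0.96 and -0.73, edgeR adjusted p = 0.114, 0.126 and 0.209). Ciita, at 3.20 ± 0.727 CPM in Day2_Gata2 and 3.73 ± 0.546 in Day2_WT, was -0.22 (SE 0.41, 95% interval -1.02 to 0.58). All 10 processing and turnover genes had values below 0 at Day2, but 0 were called. The lowest p among them was that of Cd83, at 0.835 ± 0.598 CPM in Day2_Gata2 and 2.94 ± 0.264 in Day2_WT (-1.81, edgeR adjusted p = 0.832).

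**Figure D4:**
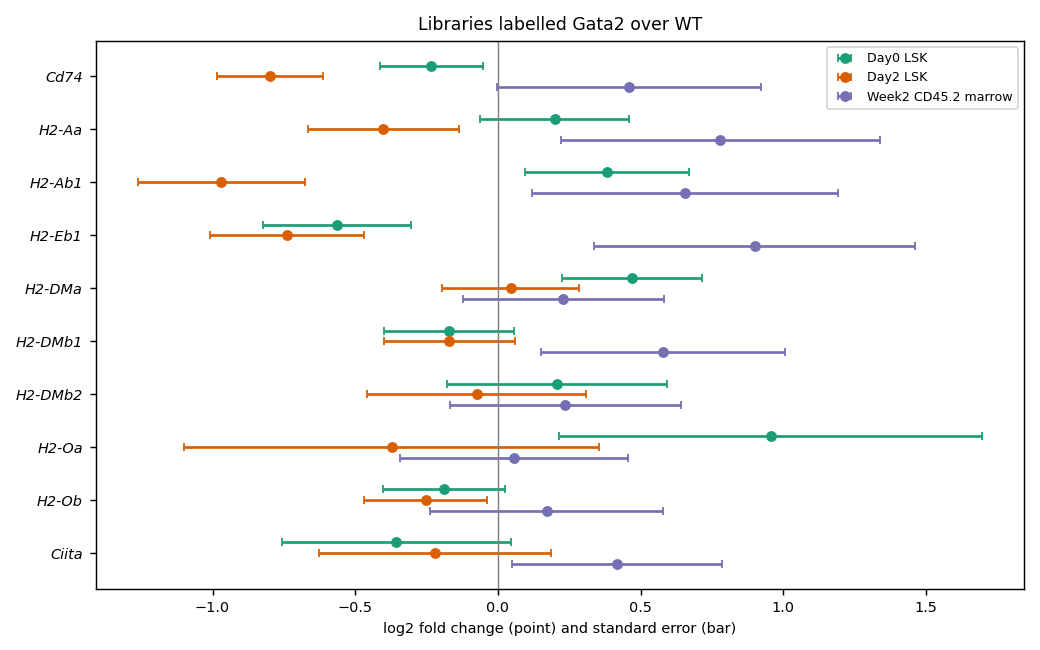
Log2 fold change of libraries labelled Gata2 over WT for each gene at Day0 (green), Day2 (orange) and Week2 (purple). Points are estimates and bars are standard errors, and no gene passed an adjusted p of 0.05 at any time. The orange points of Cd74, H2-Ab1 and H2-Eb1 lie at -0.80, -0.97 and -0.74, and all purple points lie above 0.

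At Week2, edgeR called 0% of 36485 genes in either direction, and DESeq2 called 1 of 43403 higher and 0 lower. Neither called any of the 10 genes, and 0 of the 10 had an unadjusted edgeR p under 0.05. All 10 values were above 0, with a median of 0.44 against 0.00 (0.00065) over all genes, yet the groups overlapped for every gene. H2-Eb1 had 157, 222 and 71.1 CPM in Week2_Gata2, against 122, 65.5 and 73.4 CPM in Week2_WT (log2 fold change 0.90, SE 0.56, 95% interval -0.20 to 2.00). H2-Aa had 204, 307 and 106 CPM in Week2_Gata2, against 185, 93.8 and 108 CPM in Week2_WT (0.78, SE 0.56). Week2_Gata2 replicate 3, the lowest of its group for both, was the only one of the 6 whose Xist and Ddx3y counts were those of a female. The median was 0.90 without Week2_WT replicate 1 and 0.18 without Week2_Gata2 replicate 2, so it moved with single libraries. Cd74 averaged 1607 ± 259 CPM in Week2_Gata2 and 1218 ± 381 in Week2_WT, and Ciita 48.2 ± 6.77 and 38.3 ± 7.05 CPM in the same order. In these 3 genotype comparisons 0 genes of any other list were called.

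Week2 against Day0 set CD45.2 marrow cells beside LSK cells, so time and cell population cannot be told apart, and the fit shares the Day0 libraries with the comparisons above. In Gata2-labelled libraries 6 of the 10 genes were higher at Week2 and 1 lower, where 32.6% of 31164 genes tested were higher and 10.4% lower. In WT 5 were higher and 2 lower, where 21.9% were higher and 11.6% lower. The median of the 10 genes was 1.87 in Gata2-labelled libraries and 1.23 in WT, beside medians of 1.22 and 0.95 over all genes, which RLE scaling moved to 1.35 and 1.03. The genotype difference of this change was not called for any of the 10 genes by edgeR (0% of all genes in either direction) or by DESeq2. Over all genes DESeq2 called 2 of 43434 higher and 6 lower. Of the 10, 1 gene, H2-Eb1, had an unadjusted edgeR p under 0.05, as had 1459 genes in all (1.32, SE 0.49, edgeR adjusted p = 0.876).

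Cd74 rose to 1519, 1899 and 1404 CPM in Week2_Gata2, against 206, 163 and 212.5 CPM in Day0_Gata2, and to 1646, 919 and 1088 CPM in Week2_WT, against 247.5 and 199 CPM in Day0_WT. That was 8.30-fold (log2 fold change 3.05, SE 0.23, edgeR adjusted p = 9.62e-08) and 5.45-fold (2.45, SE 0.26, edgeR adjusted p = 6.12e-06). H2-Aa was 1.91 and 1.45 higher on the log2 scale in the same order, and H2-Ab1 1.85 and 1.70. The WT value of Cd74 was 2.61 without Day0_WT replicate 1 (edgeR adjusted p = 0.000183). In WT the H2-Aa and H2-Ab1 calls were lost without Day0_WT replicate 1 (1.22, edgeR adjusted p = 0.106, and 1.29, 0.0737). H2-Eb1 rose in Gata2-labelled libraries (1.89, SE 0.34, edgeR adjusted p = 0.000752), and its WT value was 0.57 (SE 0.38, edgeR adjusted p = 0.227), or 0.94 without Day0_WT replicate 1 (edgeR adjusted p = 0.165). Ciita rose 6.97-fold (2.80, SE 0.29, edgeR adjusted p = 3.37e-06) and 4.44-fold (2.15, SE 0.33, edgeR adjusted p = 0.000227), the WT value being 2.72 without Day0_WT replicate 1.

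The 2 H2-DM beta chain genes parted. H2-DMb2 had 41.9, 57.8 and 51.2 CPM in Week2_Gata2, against 6.43, 5.46 and 6.65 CPM in Day0_Gata2, and 60.3, 33.1 and 37.6 CPM in Week2_WT, against 5.58 and 4.94 CPM in Day0_WT. No Week2 library came near a Day0 library, and the rise was 8.14-fold and 8.31-fold (log2 fold change 3.02 and 3.06, edgeR adjusted p = 2.67e-06 and 1.9e-05). H2-DMb1 had 34.7, 38.6 and 21.99 CPM in Week2_Gata2, against 37.7, 33.9 and 34.7 CPM in Day0_Gata2 (-0.16, SE 0.25, edgeR adjusted p = 0.615). In WT it had 28.0, 22.3 and 17.95 CPM at Week2, against 45.4 and 33.0 CPM at Day0, and was called lower (-0.78, SE 0.27, edgeR adjusted p = 0.0383), a call lost in 11 of 22 alternatives and at -0.54 without Day0_WT replicate 1 (edgeR adjusted p = 0.192). The quotient of H2-DMb2 to H2-DMb1 CPM was 1.21 to 2.33 in Week2_Gata2, against 0.161 to 0.191 in Day0_Gata2, and 1.485 to 2.15 in Week2_WT, against 0.123 and 0.150 in Day0_WT. At Day2 it was 0.225 and 0.259 in Day2_Gata2 and 0.175 to 0.261 in Day2_WT.

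H2-DMa was called lower at Week2 in both genotypes. It fell to 82.3, 81.0 and 68.0 CPM in Week2_Gata2, against 177, 173 and 182 CPM in Day0_Gata2 (log2 fold change -1.20, SE 0.21, edgeR adjusted p = 0.000577), and to 75.9, 69.3 and 63.8 CPM in Week2_WT, against 88.9 and 164 CPM in Day0_WT (-0.86, SE 0.23, edgeR adjusted p = 0.0127). The WT call was lost in 2 of 22 alternatives, without Day0_WT replicate 2 (-0.34, edgeR adjusted p = 0.234) and with the groups alone, and without Day0_WT replicate 1 it was -1.24 (edgeR adjusted p = 0.00108). Brd2, whose exons overlap those of H2-DMa, had 399, 379.7 and 489.7 CPM in Week2_Gata2, against 382, 404 and 410 CPM in Day0_Gata2, and 406, 421 and 386.5 CPM in Week2_WT, against 234 and 377 CPM in Day0_WT. The Cd74 to H2-DMa quotient was 18.5 to 23.4 in Week2_Gata2 and 13.3 to 21.7 in Week2_WT. H2-Oa and H2-Ob were not called in either genotype, and in WT they were 1.01 and 0.17, or 0.13 and 0.49 without Day0_WT replicate 1.

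Other lists of the pathway at Week2 are given as counts, Gata2-labelled libraries first and WT after. Of 12 transcription machinery genes, 3 and 6 were higher and 1 and 1 lower: Irf4, a lymphoid and dendritic cell factor, was 7.26 and 5.90, and Nfya was -0.99 and -1.62. Of 7 interferon gamma signal genes, 3 and 4 were higher, among them Socs1, the feedback inhibitor (1.98 and 2.54). Of 10 processing and turnover genes, 8 and 6 were higher, led by Lgmn (2.95 and 2.58), the thiol reductase gene Ifi30 (3.17 and 3.43) and March1, the ubiquitin ligase that removes surface class II (3.61 and 3.32). Of 5 co-stimulation genes, 3 and 4 were higher and 0 and 1 lower, with Cd40 at 5.79 and 6.88. Of 12 class I pathway genes, 2 and 2 were higher and 1 and 1 lower. Of 10 neighbours, 0 were higher and 3 and 2 lower, with Tap2, a peptide transporter gene that both lists hold, at -1.43 and -1.27. In WT without Day0_WT replicate 1, fewer genes of the transcription machinery, interferon gamma signal, processing, co-stimulation and class I lists were called higher. There Irf4 was 5.91, Socs1 1.95, Lgmn 2.74, Ifi30 2.71, March1 3.74 and Cd40 6.50, and Nfya was -1.05 and Tap2 -1.16. Of the 2 further class II genes, H2-Ea-ps was higher in both and H2-Eb2 in Gata2-labelled libraries, the WT call of H2-Ea-ps being lost without Day0_WT replicate 1.

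Markers of mature cells are given beside the shares of all genes called higher, 32.6% in Gata2-labelled libraries and 21.9% in WT. The 13 B cell genes summed to 3551 to 5687 CPM in Week2_Gata2, against 85.5 to 136 CPM in Day0_Gata2, and to 3720 to 5878 CPM in Week2_WT, against 171 and 77.7 CPM in Day0_WT, and 13 and 12 of them were called higher (13 and 13 without Day0_WT replicate 1). The Cd74 to Cd79a quotient was 1.14 to 1.87 in Week2_Gata2, against 11.0 to 23.2 in Day0_Gata2, and 0.804 to 1.19 in Week2_WT, against 5.99 and 22.05 in Day0_WT. Cd79a thus differed by a larger factor between the populations than Cd74. Of 12 monocyte and macrophage genes, 7 and 4 were higher, and of 13 dendritic cell genes, 4 and 4 were higher and 2 and 3 lower. Of 9 T and NK cell genes 3 and 2, of 8 neutrophil granule genes 5 and 5, and of 6 erythroid genes 2 and 2 were higher. Libraries within a group differed in these cells. The erythroid genes summed to 723, 2049 and 22.7 CPM in Week2_Gata2 and to 2738, 25.8 and 7954 CPM in Week2_WT. The neutrophil granule genes summed to 20910 to 84120 CPM in Week2_Gata2 and to 21030 to 68960 CPM in Week2_WT. Of 9 LSK genes 8 and 9 were lower. Without Day0_WT replicate 1, where 6.06% of all genes were higher in WT, the WT counts higher were 2 of the monocyte and macrophage genes, 2 dendritic cell genes, 0 T and NK cell genes, 5 neutrophil granule genes and 0 erythroid genes. The part of each of these cells in the class II values was not tested.

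**Figure D5:**
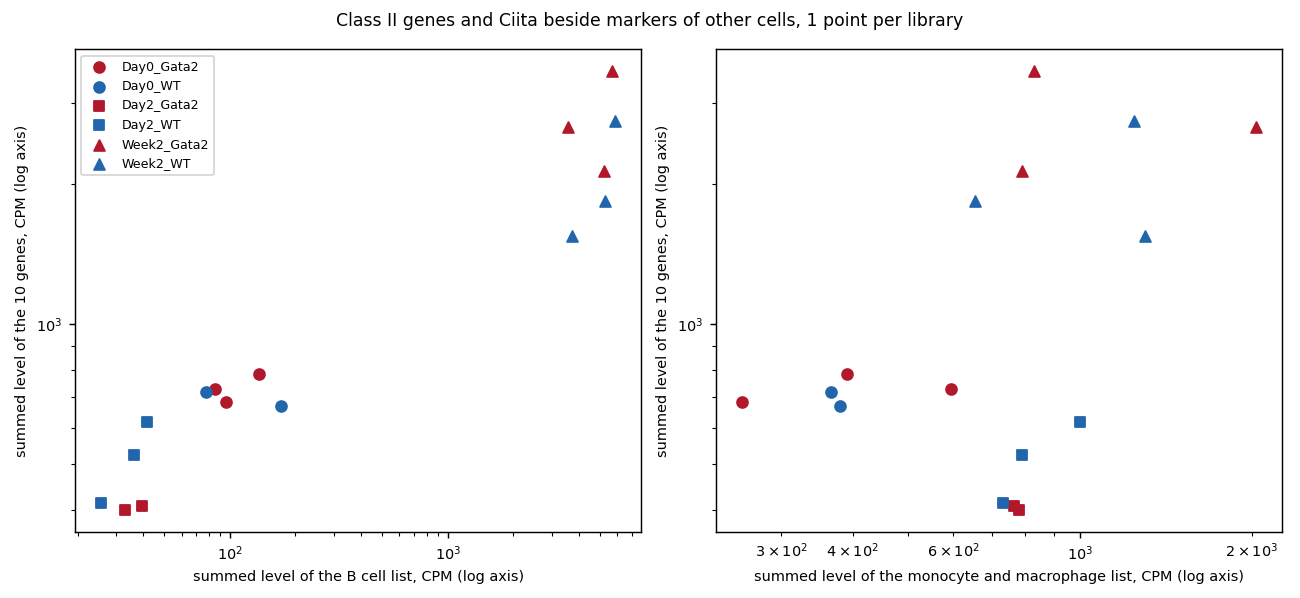
Summed CPM of the 10 genes against summed CPM of 13 B cell genes (left) and of 12 monocyte and macrophage genes (right), both axes log, 1 point per library. Red is labelled Gata2 and blue WT, and circles, squares and triangles are Day0, Day2 and Week2. The Week2 triangles lie at 1551 to 3501 CPM beside B cell sums of 3551 to 5878 CPM, and the Day2 squares at 400 to 616 CPM beside 25.6 to 41.7 CPM.

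Among the 10 genes, agreement differed between the LSK and the Week2 libraries. Over the 10 LSK libraries the correlation of each gene with the mean of the standardised log2 levels of all 10 was 0.957 for H2-Aa, 0.893 for Cd74, 0.883 for H2-Ab1, 0.723 for Ciita, 0.407 for H2-DMb2, 0.333 for H2-Oa and 0.0729 for H2-DMa. Over the 6 Week2 libraries it ran from 0.716 for H2-Ob to 0.970 for Cd74. The LSK values include Day0_WT replicate 1, where H2-Oa had 0.883 CPM and H2-DMa 88.9 CPM, against 10.9 and 164 CPM in replicate 2. They were not computed without that library. Each gene is part of the mean, and the libraries share their groups and their scaling, so these are descriptions. Of 10552 other genes of 5 CPM or more, the 5 most alike over the LSK libraries were 1810043G02Rik (r = 0.952), Tmsb10 (0.950), Adprhl2 (0.950), Pip4k2c (0.948) and Dync2li1 (0.945). Over the Week2 libraries, of 10656 genes, they were D3Ertd751e (0.996), Ints8 (0.995), Snapc1, Rbmx2 and Prpf4b (0.994 each), over only 6 points.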

How the data were processed

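RNA of 16 mouse bone marrow libraries was sequenced, and the authors deposited raw counts of reads for each Ensembl gene. The submitters' processing notes name Trimmomatic 0.38 (a read trimmer), STAR 2.5.2b (an aligner) and the mm10 build. The counting tool, its strand setting and its annotation are not given in the sources read, and the labels name 2 library kits without saying which sample had which. Groups came from sample titles. Of 45706 IDs, 45143 had a GENCODE M21 symbol, and 0 sample columns were left unused.

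The deposited counts were tested with edgeR 4.0.16 in R 4.3.3 (robust quasi-likelihood, TMM scaling, low count filter at its defaults, Benjamini-Hochberg adjusted p under 0.05 over all genes tested). The 10 LSK libraries were fitted together, the 6 Week2 libraries alone, and all 16 for Week2 against Day0. SE is the log2 fold change over the square root of F. DESeq2 1.42.0, RLE scaling, no filter, a replicate block, sex, other sample sets and leaving out each library were alternatives. The list genes without Day0_WT replicate 1 were added after seeing the data. The fits were tested on simulated data. The members and the gene lists were chosen with earlier results of these data known. The text names all 10 members and, from each other list, called genes among the 3 of lowest p in each direction, or the 2 of lowest p where none was called. Cd79a, Ms4a1 and Brd2 fall outside that rule and were named after their values were seen. The values of 1 list gene are not reported here.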

Additional observations from a re-analysis of the deposited data

How the results depend on the processing

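Cd74 and H2-Eb1 were called lower at Day2 in both genotypes under all 17 alternatives, and the 7 Week2 against Day0 calls in Gata2-labelled libraries under all 22. For Day2 against Day0 in WT, DESeq2 called 5 of the 10 genes lower, where it called 14.6% of all genes lower. Leaving out 1 library changed the number called and gave a median of -0.67 to -0.44 for the 10 genes. In Gata2-labelled libraries the 2 groups fitted alone gave 8 lower, where 17.8% of all genes were lower. With 1 library left out, the number called also changed and the median was -1.22 to -1.02. The genotype difference of that change had a median of -0.51 to -0.11 with 1 library left out. Its only calls there, like those over all genes, came without Day0_WT replicate 2. At Day0, the only calls of Gata2 against WT among the 10 genes came without Day0_WT replicate 2, which leaves a single WT library. For Week2 against Day0 in WT, the replicate block gave 1 lower and the groups alone 0, and leaving out 1 library gave 3 to 6 higher, 1 to 2 lower and a median of 0.95 to 1.74. In Gata2-labelled libraries the median ran from 1.495 to 2.18, and the number called for the genotype difference changed. The Week2 Gata2 against WT median ran from 0.18 to 0.90. A group of 2 with 1 left out is a single library, tested with the spread of the others. The cause of these changes was not tested, beyond fewer libraries or genes in the fit.

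Same-numbered libraries did not all deviate together: r was -0.173 to 0.11 over 13 LSK pairs, with 1 over 0.1, and 0.711, -0.757 and 0.464 for Week2 replicates 1, 2 and 3, where Week2_Gata2 replicates 2 and 3 each correlated best with another number. The numbers were therefore not taken to pair the libraries. With the replicate block, Day2 against Day0 had 2 genes lower in WT (Cd74 and H2-Eb1), where 7.63% of all genes were lower. In Gata2-labelled libraries 3 were lower (Cd74, H2-Ab1 and H2-Eb1), where 2.03% of all genes were.

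No called gene changed sign with 1 library left out, but 56 uncalled values did, over these ranges. In Day0 Gata2 against WT they were H2-Aa -0.0073 to 0.64, H2-Ab1 -0.0096 to 1.13, H2-DMb1 -0.25 to 0.11, H2-Ob -0.28 to 0.17 and Ciita -0.60 to 0.25. In Day2 Gata2 against WT they were H2-DMa -0.087 to 0.21, H2-DMb1 -0.30 to 0.0075, H2-DMb2 -0.31 to 0.22 and Ciita -0.37 to 0.00089. In Week2 Gata2 against WT they were H2-DMb2 -0.019 to 0.80, H2-Oa -0.20 to 0.52 and H2-Ob -0.22 to 0.56. For Day2 against Day0 they were H2-DMa -0.13 to 0.022 in Gata2-labelled libraries, and H2-Ab1 -0.61 to 0.37, H2-DMb2 -0.085 to 0.44 and H2-Oa -0.63 to 2.98 in WT. Its genotype difference had H2-Eb1 -0.56 to 0.051, H2-DMb1 -0.26 to 0.17, H2-DMb2 -0.49 to 0.035, H2-Ob -0.41 to 0.12 and Ciita -0.46 to 0.41. For Week2 against Day0 they were H2-DMb1 -0.42 to 0.050 and H2-Oa -0.25 to 0.16 in Gata2-labelled libraries, and H2-Ob -0.082 to 0.49 in WT. Its genotype difference had H2-Ab1 -0.45 to 0.56, H2-DMa -0.87 to 0.034, H2-DMb2 -0.25 to 0.27 and H2-Ob -0.057 to 0.52.

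Among uncalled values under other settings, H2-DMa at Day2 against Day0 in Gata2-labelled libraries became -0.014 under RLE scaling, -0.18 with no filter, -0.014 under DESeq2 and -0.0021 with the groups alone. In the genotype difference of Day2 against Day0, H2-Ob became 0.023 (RLE), 0.017 (DESeq2) and 0.031 (block), H2-DMb2 0.036 (block), Ciita -0.010 and H2-DMb1 -0.11 (no filter), and H2-DMb1 -0.027 (all 16 libraries). With the block, H2-DMb2 became 0.10 in Day2 Gata2 against WT and 0.074 in Day2 against Day0 in Gata2-labelled libraries. In the genotype difference of Week2 against Day0, H2-DMb2 became 0.040 (RLE), 0.036 (DESeq2) and 0.022 (block). H2-Oa in Week2 against Day0 in Gata2-labelled libraries became -0.19 with no filter and -0.15 with the groups alone. Depth limits H2-Oa, which had 19 counts in Day0_WT replicate 1.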
